A study of Mus musculus with 2 samples.

Results

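The Notch receptor genes *Notch1*, *Notch2* and *Notch3*, the ligand genes *Dll1*, *Dll3*, *Dll4* and *Jag1*, and the Fringe genes *Mfng*, *Lfng* and *Rfng* were followed in single cells of the embryonic mouse retina. The 10 genes were taken by name and were found under their own symbols among the 28692 genes listed in both count matrices. All 10 were among the 17115 genes with a transcript in more than 3 cells. Retinas were taken at stage E14.5 from heterozygous *LHX4::GFP* embryos of strain Tg(Lhx4::EGFP)KN199Gsat/Mmucd, in which a bacterial artificial chromosome carrying *Lhx4* regulatory sequence drives EGFP. Embryos of 2 litters were pooled before the cells were sorted, so that the GFP+ and the GFP− cells shared genotype, age and suspension and differed in reporter fluorescence. Each sort gate gave 1 droplet library, and there were therefore no replicates.

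Notch is a receptor that passes a signal between touching cells. A Delta or Jagged ligand on one cell pulls on the receptor of its neighbour, the receptor is cleaved, and its intracellular part joins the DNA-binding protein Rbpj to switch on *Hes* and *Hey* repressors, which hold back proneural factors such as Neurog2 and Atoh7. Fringe enzymes add a sugar to the receptor and change which ligands it answers to. In the developing retina the pathway is known for keeping some progenitors uncommitted while their neighbours become neurons, and loss of *Notch1* is known to give extra cones at this age. *Dll3* is the unusual Delta, known to stay largely inside the cell and to be a poor activator of receptors on neighbouring cells.

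The promoter sequences of *Dll1*, *Dll4* and *Lfng* are shown because their transcripts varied with proneural transcripts in the cells described later. *Dll1* and *Dll4* were higher with more of them, and *Lfng* was highest at a middle number. *Dll3* was also higher with more, but its window lies within the annotated gene and is not printed. Each window is the 250 bases before a RefSeq start (GRCm38.p6), written 5′ to 3′ on the strand of the gene, with capitals at E-boxes (CANNTG, the core that proneural factors bind) and at TGGGAA, the core of the Rbpj site, searched on both strands. The *Dll1* window lies at chr17:15376933-15377182 on the minus strand, the *Dll4* window at chr2:119325534-119325783 on the plus strand and the *Lfng* window at chr5:140607091-140607340 on the plus strand.
Dll1: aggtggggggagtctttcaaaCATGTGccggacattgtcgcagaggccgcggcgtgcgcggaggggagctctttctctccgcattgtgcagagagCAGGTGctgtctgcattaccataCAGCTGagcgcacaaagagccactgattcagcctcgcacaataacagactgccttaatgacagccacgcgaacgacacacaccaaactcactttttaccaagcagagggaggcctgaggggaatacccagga
Dll4: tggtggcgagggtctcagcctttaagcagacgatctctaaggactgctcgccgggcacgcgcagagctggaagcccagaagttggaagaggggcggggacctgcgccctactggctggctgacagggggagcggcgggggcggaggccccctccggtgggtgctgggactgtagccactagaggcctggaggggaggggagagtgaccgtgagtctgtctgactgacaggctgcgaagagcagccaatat
Lfng: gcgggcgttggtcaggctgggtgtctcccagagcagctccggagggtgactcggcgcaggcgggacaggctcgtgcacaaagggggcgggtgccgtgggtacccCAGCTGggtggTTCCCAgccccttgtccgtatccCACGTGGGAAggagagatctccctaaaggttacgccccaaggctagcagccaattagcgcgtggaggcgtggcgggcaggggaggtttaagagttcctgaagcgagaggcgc
The *Dll1* window held 3 E-boxes, and at least 3 were in 12.2% of all 32851 RefSeq promoter windows. The window of *Dll4*, whose transcripts followed proneural transcripts most steeply, held 0 of either motif. The *Lfng* window held 2 E-boxes and 2 TGGGAA cores, and 1 core overlapped 1 E-box. At least 2 E-boxes were in 31.8% and at least 2 TGGGAA cores in 2.77% of all windows. Of the other members, *Dll3* held 2 E-boxes, *Jag1* and *Rfng* held 1 each, a further *Dll1* start held 1, and the windows of the receptors held 0 of both motifs. The windows of *Dll3*, *Notch1* and the further *Dll1* start lie wholly within the gene as GENCODE annotates it, downstream of its first annotated base. A match is a description of letters and was not tested as a binding site. Promoters were matched for 9 of the 10 members, and *Mfng* had no entry.

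After filtering, 3689 of 3728 GFP+ cells and 3390 of 4445 GFP− cells were kept, with 15502312 and 30106206 UMIs (unique molecular identifiers, 1 per captured transcript). Median depths were 3894 UMIs per GFP+ cell and 8850.5 per GFP− cell. The libraries shared 20 barcodes, 15 of them among kept cells, and 0 of the shared barcodes fell in the same group of cells in both. Markers of lens, pigment, vessel, blood, microglial and connective tissue cells summed to 45.2 CPM (UMIs scaled to 1e+06 per group) in the GFP+ library and 46.1 CPM outside the gate, over 12 of 15 listed genes that were found, of which 2 were at 0 in GFP+ cells. The sums had different leading genes, the microglial gene *C1qa* in GFP+ (26.6 against 3.62 CPM) and the receptor gene *Kdr* in GFP− cells (35.7 against 0.968 CPM), and their part in the member values was not tested. Levels are summed UMIs of all cells of a group, in CPM with 95% exact Poisson intervals, which, like all intervals here, cover counting error only. CPM of 3′ counts are compared within a gene and not between genes, and a larger value may be more cells with the transcript or more of it per cell.

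Cells were put into groups by UMIs of marker genes. Of the GFP− cells, 1739 were progenitor-like (10 or more UMIs of progenitor markers, among them *Sfrp2*, *Fgf15* and *Ccnd1*), 615 were neurogenic (3 or more of *Neurog2*, *Atoh7* and *Olig2*), 485 were ganglion-cell-like (3 or more of *Pou4f2*, *Pou4f1*, *Isl1*, *Sncg* and *Rbpms*) and 373 were amacrine- or horizontal-like (3 or more of *Tfap2a*, *Tfap2b* and *Ptf1a*). Of the GFP+ cells, 3588 (97.3%) were cone-like (3 or more UMIs of *Gngt2*, *Thrb*, *Pdc* and *Gnb3*), and 66 cone-like cells were found outside the gate. A further 41 GFP− and 39 GFP+ cells had 3 or more summed UMIs of *Otx2* and *Crx* and met no neuron or neurogenic rule. They were given no cell type name. This rule came before that for progenitor-like cells, so 10 or more progenitor marker UMIs did not exclude a cell. The groups are ranges of a marker sum: 66 neurogenic cells sat exactly at the limit and 244 cells 1 UMI below it, against 41 and 33 for the cone-like GFP+ cells. Neurogenic cells had medians of 11 proneural and 12 progenitor marker UMIs, and progenitor-like cells of 0 and 54. Since the cone-like cells come from one library and the other groups from another, group and library cannot be told apart in comparisons with them.

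Between the sort gates, *Dll3* was the member with more transcripts in GFP+ cells, and *Lfng*, *Notch3*, *Notch1* and *Mfng* had fewer. *Dll3* stood at 157 CPM in the GFP+ and 47.9 CPM in the GFP− library, a ratio of 3.27 (95% interval 3.06 to 3.49). *Lfng* gave 12 UMIs in all GFP+ cells (0.774 CPM) against 1014 in GFP− cells (33.7 CPM), and was 43.5-fold lower (24.8 to 84.5). *Notch3* was 7.75-fold lower (1.16 against 9.00 CPM), *Notch1* 4.06-fold lower (14.6 against 59.5 CPM) and *Mfng* 2.11-fold lower (44.1 against 92.9 CPM). So 1 member was at least 2-fold higher and 4 at least 2-fold lower, where 21.9% and 15% of the 13590 genes with 30 or more UMIs were. The median of all genes was itself shifted by 0.30 on the log2 scale toward GFP+ cells.

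The other 5 members lay within 2-fold between the gates. *Notch2* was 1.67-fold higher in GFP+ cells (17.9 against 10.7 CPM) and *Rfng* 1.67-fold higher (57.1 against 34.2 CPM). *Dll1* (20.8 and 25.4 CPM), *Dll4* (13.4 and 19.2 CPM) and *Jag1* (1.48 and 2.36 CPM) were lower in the GFP+ library, and the interval for *Jag1* included 1. Counted as UMIs per cell instead, without scaling to depth, *Dll3* was 1.55-fold higher in GFP+ cells, and *Notch2* (0.788) and *Rfng* (0.79) were lower there, so the direction of the last 2 depends on the scale. Without the upper limit on genes per cell, *Mfng* came to a ratio of 0.565 and *Dll1* to 1.04.

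**Figure D1:**
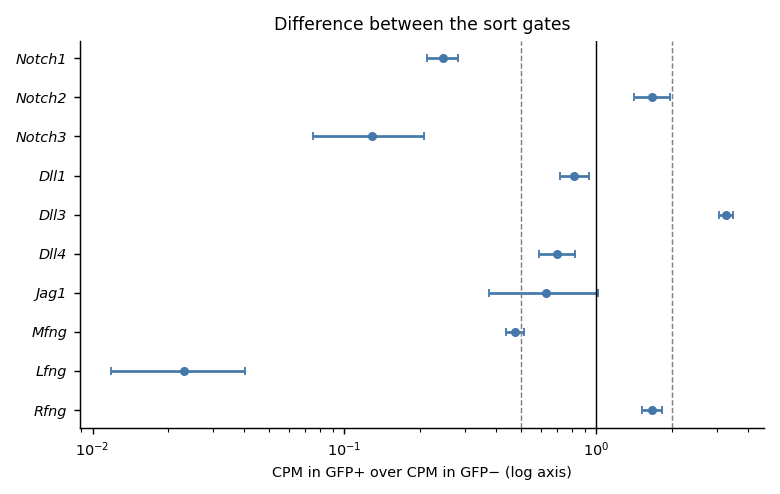
Ratio of GFP+ to GFP− levels (each in CPM) of the 10 members on a log axis, with 95% exact counting intervals. The solid line marks no difference and the dashed lines 2-fold. *Dll3* lies to the right of 2-fold at 3.27 and *Lfng* farthest to the left at 0.023.

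The groups separated what the gates mixed. In neurogenic cells all 4 ligands and *Mfng* were at least 2-fold above progenitor-like cells, and *Notch3* was below them. That is 5 of 10 members higher and 1 lower, where 4.4% and 7.36% of the 11805 genes were. Against the same progenitor-like cells, 3 members were higher and 4 lower in ganglion-cell-like cells (13.8% and 18% of genes), 5 higher and 2 lower in amacrine- or horizontal-like cells (15.9% and 17.7%), and 4 higher and 3 lower in cone-like cells (28% and 14.6%). All these comparisons share the progenitor-like cells. In amacrine- or horizontal-like cells, thinning to 3200 UMIs before the groups were set left 4 of the 7 calls, and *Dll1* there turned from a ratio of 2.70 to 0.939. The median gene was shifted by 0.40 on the log2 scale toward cone-like cells, by 0.09 toward amacrine- or horizontal-like cells and by less than that in the others.

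Among the receptors, *Notch1* was highest in neurogenic cells, at 113 CPM (104 to 122), and stood at 57.8 CPM (54.1 to 61.6) in progenitor-like cells. The 1.96-fold difference (1.76 to 2.17) was just short of 2-fold and passed it under 3 other ways of setting the neurogenic group (2.17 to 2.37). *Notch1* was at 43.9 CPM in amacrine- or horizontal-like, 20.5 CPM in ganglion-cell-like and 13.3 CPM in cone-like cells. Among these 5 groups the order neurogenic, progenitor-like, amacrine- or horizontal-like, ganglion-cell-like and cone-like held with intervals of neighbours that did not overlap, so the transcript was 8.47-fold lower in cone-like than in neurogenic cells (7.20 to 10.0).

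*Notch2* and *Notch3* differed from *Notch1* and from each other. *Notch2* was at 15.0 CPM in progenitor-like, 11.1 CPM in neurogenic and 17.9 CPM in cone-like cells, but at 1.20 CPM in ganglion-cell-like and 1.93 CPM in amacrine- or horizontal-like cells (6 and 5 UMIs). It was thus 14.9-fold higher in cone-like than in ganglion-cell-like cells (6.75 to 40.9), and still 5.99-fold higher in UMIs per cell although the cone-like cells were shallower. Cone-like and progenitor-like cells differed by 1.20-fold (1.002 to 1.43), and the direction turned with the scale (0.533 in UMIs per cell). The highest *Notch3* level was the 14.1 CPM of progenitor-like cells, with 4.38 CPM in neurogenic, 2.31 CPM in amacrine- or horizontal-like, 1.60 CPM in ganglion-cell-like and 0.875 CPM in cone-like cells. The intervals of the last 3 overlapped.

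Free RNA in a suspension can give low counts in droplet libraries. *Sfrp2*, a secreted Wnt inhibitor made by progenitors, stood at 1536 CPM in progenitor-like cells, and its level in the other groups was taken as a reference. It was 9.03% of that level in ganglion-cell-like, 3.31% in amacrine- or horizontal-like and 1.54% in cone-like cells. *Notch2* in ganglion-cell-like cells, at 8.04% of its progenitor-like level, and *Lfng* in cone-like cells, at 1.13%, lay below this reference, and no expression is read from these 2 values. *Notch3* lay above it, at 11.4%, 16.4% and 6.21% in the same order. The first value rests on 8 UMIs, and its interval (0.693 to 3.16 CPM) reaches below the reference, so no expression is read from it either. *Sfrp2* itself was uneven, with up to 46 UMIs in 1 ganglion-cell-like cell, and how much of these counts came from free RNA was not tested.

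Each of the Delta ligands had its own pattern over the groups. *Dll1*, the main activating ligand of embryonic neural progenitors, was at 8.84 CPM (7.45 to 10.4) in progenitor-like and 89.5 CPM (81.6 to 98.02) in neurogenic cells, 10.1-fold higher (8.38 to 12.3). In the neuron groups it was low again, at 13.6 CPM in ganglion-cell-like, 23.9 CPM in amacrine- or horizontal-like and 21.3 CPM in cone-like cells. The intervals of the last 2 overlapped. The 2.41-fold excess of cone-like over progenitor-like cells was 1.07-fold in UMIs per cell and 1.82-fold after division by the median of all genes.

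*Dll4*, known as a ligand of newly forming retinal neurons and of growing blood vessels, was low in every named group but the neurogenic and cone-like cells. It gave 36 UMIs in 1739 progenitor-like cells (2.23 CPM) and 509 in 615 neurogenic cells (97.0 CPM), 43.6-fold higher (31.0 to 62.9). Ganglion-cell-like cells (2.21 CPM) and amacrine- or horizontal-like cells (3.08 CPM) did not differ from progenitor-like cells beyond counting error, with intervals of the ratio of 0.455 to 1.99 and 0.556 to 3.03. Cone-like cells kept 13.4 CPM (11.6 to 15.4), 6.02-fold above progenitor-like and 7.24-fold below neurogenic cells.

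*Dll3* stayed high where the other ligands were low. It was at 9.15 CPM in progenitor-like and 143 CPM in neurogenic cells (15.6-fold higher, 13.0 to 18.7) and stood at 158 CPM (152 to 164) in cone-like cells, while ganglion-cell-like (45.7 CPM) and amacrine- or horizontal-like cells (38.5 CPM) were lower. The highest level was in the 41 GFP− cells with *Otx2* and *Crx* that had no other name, at 385 CPM (315 to 464), with 211 CPM in the 39 such GFP+ cells and 277 CPM in the 66 cone-like GFP− cells. A *Dll3* transcript was found in 82.9% of those 41 cells, and up to 13 UMIs in 1 cell. In UMIs per cell, cone-like cells held 7.68 times the *Dll3* of progenitor-like and 0.536 times that of neurogenic cells.

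*Jag1* was scarce everywhere, with 71 UMIs in all GFP− and 23 in all GFP+ cells. Neurogenic cells had 4.38 CPM against 1.30 CPM in progenitor-like cells, 3.37-fold higher (1.78 to 6.41), and 2.81 CPM in ganglion-cell-like and 3.85 CPM in amacrine- or horizontal-like cells gave ratios of 2.16 (1.02 to 4.46) and 2.97 (1.25 to 6.58). These calls rest on 23, 14 and 10 UMIs in the 3 groups and 21 in progenitor-like cells.

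The Fringe genes differed between the groups, and *Mfng* and *Lfng* also within them. *Mfng* was highest in ganglion-cell-like cells, at 253 CPM (240 to 268), followed by neurogenic cells at 174 CPM (163 to 186), amacrine- or horizontal-like cells at 79.4 CPM, cone-like cells at 42.9 CPM and progenitor-like cells at 19.1 CPM, with no overlap of intervals between neighbours among these 5. Up to 14 UMIs were found in 1 ganglion-cell-like cell. Of the ganglion-cell-like cells, the 168 with 0 proneural UMIs had 106 CPM of *Mfng*, below neurogenic cells. The 155 with 3 or more had 381 CPM, and these also met the neurogenic rule, since neuron groups were set first. The group held 1264 *Mfng* UMIs, 190 of them in the first subset and 570 in the second. The rest were in cells with 1 to 2 proneural UMIs, whose level was not computed apart. The limit of 3500 genes matters here, since it kept 485 of 1051 ganglion-cell-like cells, and without it *Mfng* was at 136 CPM and *Dll3* at 24.8 CPM in that group. Neurogenic cells were then at 161 CPM of *Mfng*, so the order of the first 2 groups turned. *Mfng* was then 8.64-fold instead of 13.3-fold above progenitor-like cells. The 2.24-fold excess of *Mfng* in cone-like cells was 0.999 in UMIs per cell.

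*Lfng* was at 29.8 CPM in progenitor-like, 51.1 CPM in neurogenic and 72.1 CPM in amacrine- or horizontal-like cells, where single cells held up to 10 UMIs. That last value joins unlike subsets described later, among them 45 cells at 360 CPM and 268 at 18.2 CPM. *Lfng* was at 10.4 CPM in ganglion-cell-like cells and all but missing from cone-like cells, with 5 UMIs in 3588 cells, 88.4-fold below progenitor-like cells (37.6 to 273). Without the limit of 3500 genes the levels were 0.785 and 30.5 CPM, a ratio of 0.0257 in place of 0.0113. The 41 *Otx2* and *Crx* cells outside the gate had 0 *Lfng* UMIs, which allows up to 10.7 CPM. *Rfng* was the flattest member, at 20.6 CPM in neurogenic, 29.8 CPM in progenitor-like, 49.3 CPM in amacrine- or horizontal-like, 53.1 CPM in ganglion-cell-like and 57.4 CPM in cone-like cells. The last 3 did not differ beyond their intervals, and against progenitor-like cells no named group passed 2-fold, although without the limit of 3500 genes ganglion-cell-like cells did (2.07).

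**Figure D2:**
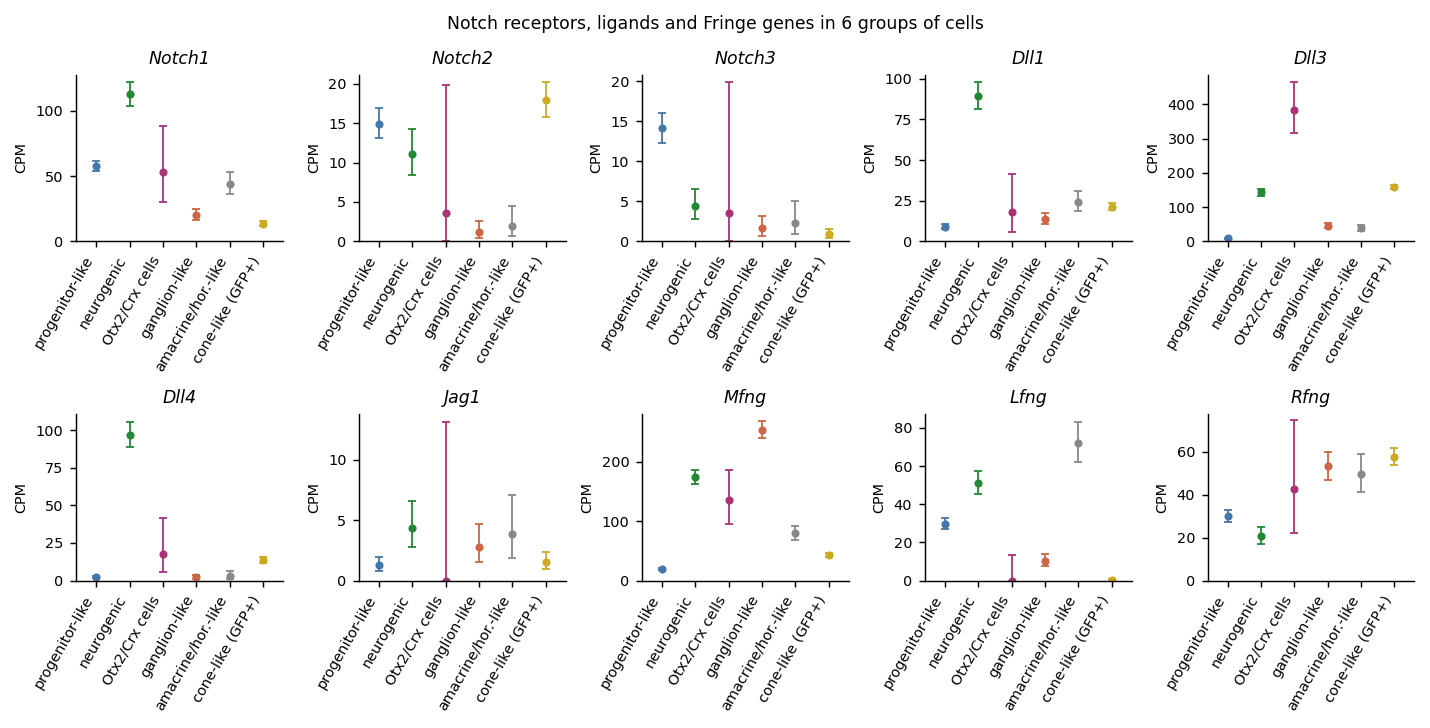
CPM of each member in 6 groups of cells, 1 panel per gene with its own linear axis from 0, points with 95% exact Poisson intervals. Cone-like cells are from the GFP+ library and the others from the GFP− library. *Dll1* and *Dll4* peak in neurogenic cells, *Dll3* in the *Otx2* and *Crx* cells, *Mfng* in ganglion-cell-like cells (under the limit of 3500 genes, without which neurogenic cells were higher), and *Lfng* is near 0 in cone-like cells.

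Cells with more proneural transcripts carried more ligand transcripts. Progenitor-like and neurogenic GFP− cells were binned by their summed *Neurog2*, *Atoh7* and *Olig2* UMIs into 1322 cells with 0, 417 with 1 to 2, 172 with 3 to 5, 134 with 6 to 10, 143 with 11 to 20 and 166 with 21 or more. Median depths of the bins were 7893 to 9415 UMIs. The bins were chosen after the data were seen, are described with no test, and hold cells of 1 library. They are ranges of a UMI sum and not times. The bins of 0 and of 1 to 2 hold progenitor-like cells. These needed 10 or more progenitor marker UMIs and fewer than 3 summed *Otx2* and *Crx* UMIs. From 3 proneural UMIs up the cells are neurogenic, for which neither was asked, so the rule changes between 2 and 3. The mix of cells with *Olig2* and with *Atoh7* in the bins was not held fixed. The part of this rule and of this mix in the courses below was not tested.

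*Dll1*, *Mfng* and *Dll3* were higher already in the lower of these bins. *Dll1* went from 5.69 to 18.9, 56.8, 85.1, 97.0 and 118 CPM. *Mfng* went from 13.7 to 36.3, 136, 195, 192 and 180 CPM, with its plateau from 6 to 10 proneural UMIs onward. *Dll3* went from 6.82 to 16.6, 102, 113, 142 and 204 CPM. *Dll4* stood at 1.71, 3.89, 23.1, 46.5, 110 and 196 CPM, so that most of its increase came above 10 proneural UMIs.

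The receptors did not follow one course. *Notch1* went from 55.7 to 64.3, 70.1, 111, 132 and 140 CPM, while *Notch3* went down from 14.9 CPM to 0 UMIs in the last bin, which allows up to 2.003 CPM. *Notch2* was at 15.0 CPM in the first and 9.35 CPM in the last bin, with overlapping intervals. *Lfng* went up and down again, from 29.5 CPM to a peak of 83.4 CPM (67.4 to 102) at 6 to 10 proneural UMIs and 17.4 CPM (11.3 to 25.4) in the last bin. The repressor gene *Hes5* had its peak in the same bin (853 CPM, against 303 CPM in the first and 356 CPM in the last), whereas *Hes1*, the repressor of dividing progenitors, went down throughout, from 615 to 38.1 CPM. *Sfrp2* went down from 1593 to 77.4 CPM, but it is among the progenitor markers that the rule of the lower bins used. Part of its fall is thus set by the grouping.

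**Figure D3:**
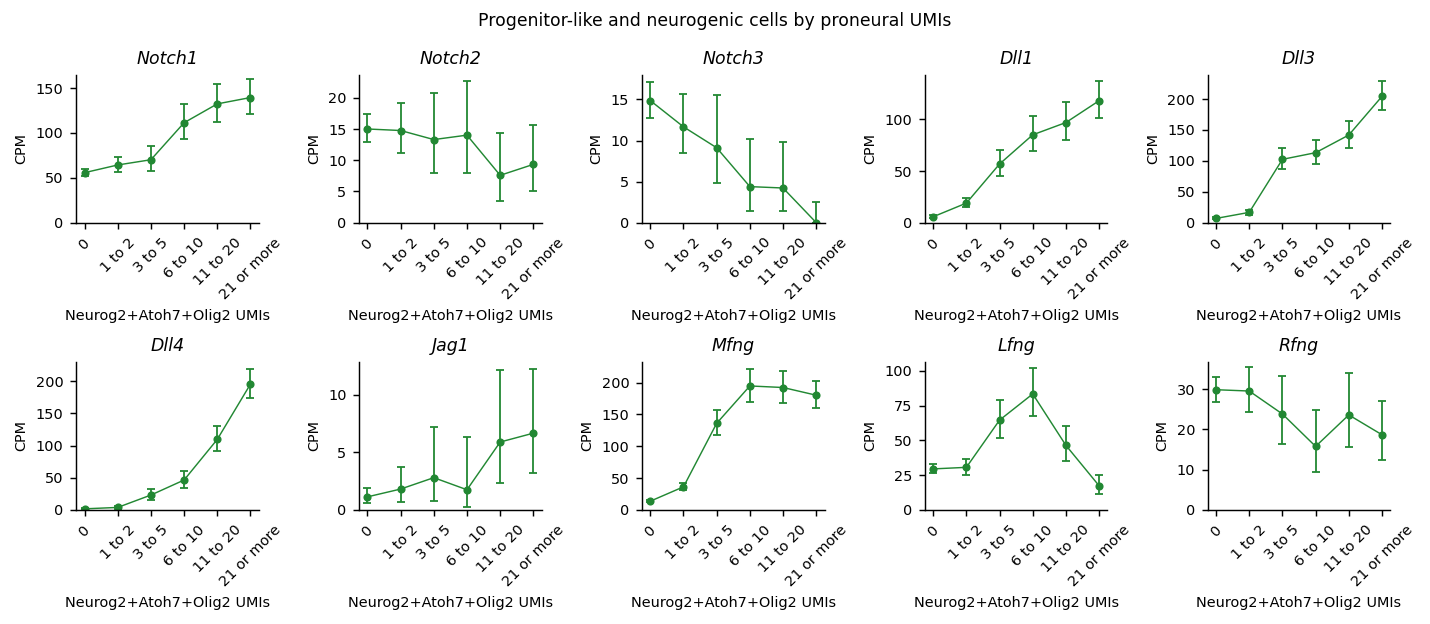
CPM of each member (linear axis from 0, 95% exact Poisson intervals) in progenitor-like and neurogenic GFP− cells binned by summed *Neurog2*, *Atoh7* and *Olig2* UMIs. Bins below 3 hold progenitor-like cells and the others neurogenic cells. *Dll4* reaches 196 CPM in the last bin, and *Lfng* peaks at 83.4 CPM in the bin of 6 to 10.

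The neurogenic group itself held cells with unlike Notch genes. *Olig2* marks progenitors whose daughters are cones and horizontal cells, and *Atoh7* is needed for ganglion cells. The 182 neurogenic cells with an *Olig2* UMI were set against the 114 with 3 or more *Atoh7* UMIs and none of *Olig2* or *Otx2*, at median depths of 8668 and 8476.5 UMIs. The *Olig2* cells were not filtered on *Otx2* or *Atoh7*, and the part of *Otx2* in the differences below was not tested. These subsets, too, were chosen after the data were seen.

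*Dll4* and *Lfng* were the members that differed most between these subsets, in opposite directions. *Dll4* was at 200 CPM (179 to 223) in *Olig2* cells and 11.03 CPM (5.51 to 19.7) in *Atoh7* cells, 18.1-fold higher (10.0 to 36.7). *Lfng* was at 16.5 CPM (10.8 to 24.2) and 148 CPM (126 to 174), 8.99-fold lower (5.90 to 14.2). *Dll3* was 3.45-fold higher in *Olig2* cells (208 against 60.2 CPM) and *Dll1* 1.73-fold higher (116 against 67.2 CPM). *Mfng* was 1.33-fold lower there (164 against 219 CPM).

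*Notch1* was at 144 and 138 CPM in the same subsets, a ratio of 1.04 (0.836 to 1.29), and so did not differ beyond counting error. *Hes1* was 7.998-fold lower in the *Olig2* cells (29.2 against 234 CPM) and *Hes5* 4.59-fold lower (285 against 1307 CPM). *Hes6*, which counters Hes1 and promotes neuron formation, was 2.23-fold higher. Neurogenic cells with *Otx2* (338 cells) gave *Dll4* at 168 CPM and *Lfng* at 28.9 CPM. Against all 433 neurogenic cells without *Olig2*, the differences of the *Olig2* cells in these 2 genes were smaller. *Dll4* was then 3.79-fold higher (3.16 to 4.56) and *Lfng* 3.99-fold lower (2.66 to 6.23). *Notch1* was 1.44-fold higher in that comparison (1.21 to 1.70). When the neurogenic group was set by *Neurog2* and *Olig2* alone, its *Lfng* ratio to progenitor-like cells was 0.738 instead of 1.72, and when set by *Atoh7* alone it was 2.33.

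**Figure D4:**
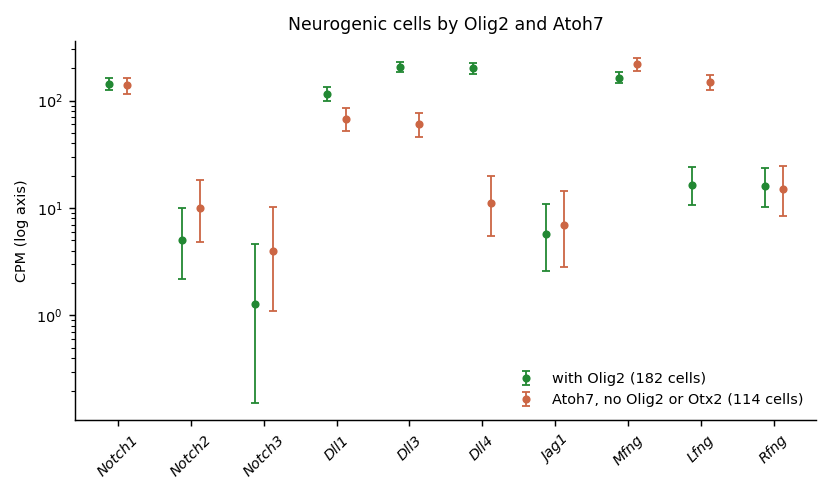
CPM on a log axis, with 95% exact Poisson intervals, of the 10 members in neurogenic GFP− cells with *Olig2* (182 cells) and in those with *Atoh7* but no *Olig2* or *Otx2* (114 cells). *Dll4* (200 against 11.03 CPM) and *Lfng* (16.5 against 148 CPM) are the most separated pairs, and the *Notch1* intervals overlap.

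Within the neuron groups, some members differed between subsets of cells. These subsets were also chosen after the data were seen. In ganglion-cell-like cells 6 of the 10 members had intervals of the ratio that did not include 1. The share of all genes that did so was not computed, so this count is not read as particular to the members. Ganglion-cell-like cells with 3 or more proneural UMIs (155 cells) had 381 CPM of *Mfng*, against 106 CPM in the 168 with 0, 3.58-fold higher (3.04 to 4.25). *Dll3* was at 91.0 against 16.2 CPM (5.603-fold, 3.73 to 8.68) and *Notch1* at 33.4 against 14.0 CPM (2.39-fold, 1.45 to 4.03) in the same cells. *Lfng* gave 36 UMIs against 3, a ratio of 14.3 (4.53 to 72.8). *Rfng* went the other way, at 41.5 against 63.2 CPM. *Sfrp2* was lower in the cells with proneural UMIs (77.6 against 223 CPM).

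In the amacrine- or horizontal-like group, *Lfng* was found in 17.2% and *Mfng* in 22.0% of cells. The 45 cells with 0 UMIs of the horizontal cell factors *Onecut1*, *Onecut2* and *Lhx1* had 360 CPM of *Lfng* (295 to 435), and the 268 cells with 3 or more had 18.2 CPM (12.6 to 25.5). *Mfng* was at 340 against 30.04 CPM, *Dll1* at 70.7 against 11.8 CPM, *Dll3* at 121 against 18.8 CPM and *Notch1* at 128 against 29.0 CPM. *Hes5* moved with them, at 1888 against 37.6 CPM, and *Rfng* was at 30.3 against 54.7 CPM with overlapping intervals. So the group values of 72.1 CPM for *Lfng* and 79.4 CPM for *Mfng* describe neither subset. The 45 cells held 107 of the 187 *Lfng* UMIs and 101 of the 206 *Mfng* UMIs of the group. Cells between these limits were not set apart.

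Cone-like GFP+ cells were split by the number of cone marker UMIs among 3200 drawn from each cell, into 305 cells with 0 to 5, 829 with 6 to 10, 1579 with 11 to 20 and 312 with 21 or more. *Notch1* was at 26.5, 20.01, 9.13 and 5.68 CPM in these bins, 4.66-fold lower in the last than in the first (2.09 to 12.2). *Dll3* was at 223, 188, 145 and 116 CPM, 1.93-fold lower (1.58 to 2.35). *Notch2* was at 11.8, 22.9, 19.6 and 8.93 CPM, with its highest values in the middle bins. *Dll1*, *Dll4*, *Mfng* and *Rfng* did not differ between the first and last bin beyond counting error, with interval bounds of the ratios between 0.428 and 2.29. Progenitor transcripts moved with them, with *Sfrp2* at 47.6 CPM in the first and 20.3 CPM in the last bin, *Hes1* at 12.4 and 2.43 CPM and *Hes5* at 7.65 and 0.811 CPM, and median depth was 5369 and 3758.5 UMIs. Their part in the *Notch1* and *Dll3* values was not tested.

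**Figure D5:**
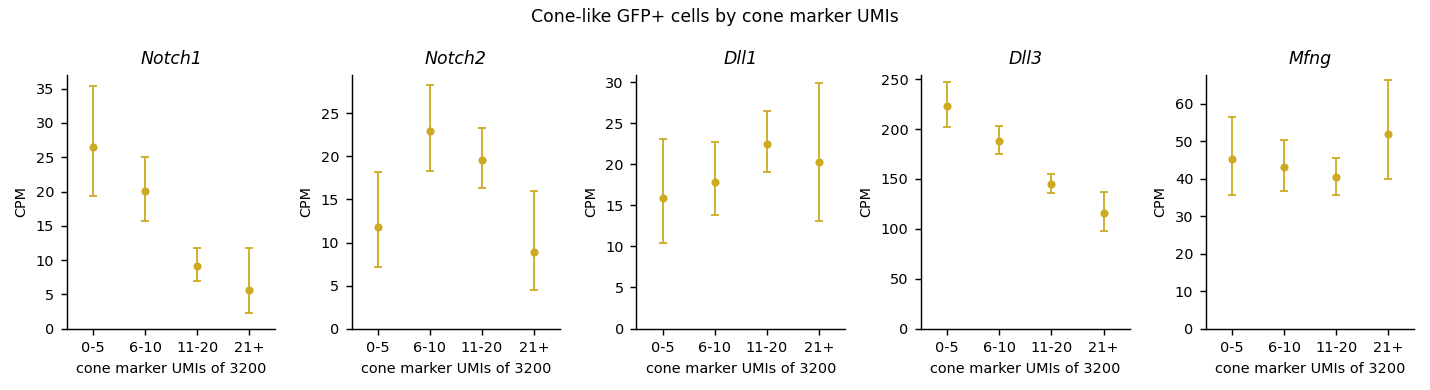
CPM (linear axes from 0, 95% exact Poisson intervals) of 5 members in cone-like GFP+ cells by cone marker UMIs per 3200 UMIs. *Notch1* goes from 26.5 to 5.68 CPM and *Dll3* from 223 to 116 CPM, while the *Dll1* and *Mfng* intervals overlap throughout.

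The 66 cone-like cells outside the gate allowed a view of cones within the GFP− library. They had a median of 7 cone marker UMIs, against 15 in the cone-like GFP+ cells. Their *Notch1* was at 39.5 CPM against 13.3 CPM in GFP+ cells (2.96-fold, 1.59 to 5.09) and their *Dll3* at 277 against 158 CPM (1.75-fold, 1.42 to 2.14). The *Notch1* value rests on 14 UMIs, and *Notch1* over all kept cells was at 59.5 CPM in the GFP− and 14.6 CPM in the GFP+ library. The part of free RNA in these values was not tested. *Mfng* (39.5 and 42.9 CPM) and *Rfng* (56.4 and 57.4 CPM) had overlapping intervals. *Lfng* gave 1 UMI (2.82 CPM, 0.0714 to 15.7). That interval lay below the 29.8 CPM of progenitor-like cells. These cells were too few to show a level as low as the 0.337 CPM of the cone-like GFP+ cells.

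Across the cell cycle, progenitor-like cells were split by UMIs of 6 genes of G2 and mitosis (*Mki67*, *Top2a*, *Cdk1*, *Ccnb1*, *Cenpf* and *Ube2c*). The 460 cells with 10 or more are called G2/M-high and were set against 768 with fewer than 3. The name stands for a range of a UMI sum and not for a measured stage. *Dll3* was 3.54-fold lower in the G2/M-high cells (3.49 against 12.4 CPM, 2.08 to 6.37). *Mfng* was 2.37-fold lower there (11.1 against 26.3 CPM, 1.74 to 3.27). *Lfng* was 1.77-fold higher (38.4 against 21.7 CPM, 1.42 to 2.21) and *Notch1* 1.37-fold higher (69.0 against 50.3 CPM). *Dll1* gave a ratio of 0.809 (0.536 to 1.21). In neurogenic cells the ligands parted. *Dll4* was 2.37-fold higher in the G2/M-high cells (142 against 59.9 CPM, 1.90 to 2.99) and *Dll3* 1.65-fold lower (121 against 199 CPM). The mix of cells with *Olig2* and with *Atoh7* was not held fixed in this split, and its part was not tested. Median depth was higher in G2/M-high cells, at 10639.5 against 8604.5 UMIs in progenitor-like and 9751.5 against 7451 in neurogenic cells.

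Shares of cells were compared after each cell was thinned to 3200 UMIs, which left out 7 of the progenitor-like, 5 of the neurogenic and 563 of the cone-like cells. At that depth *Notch1* was seen in 15.8% of progenitor-like and 27.0% of neurogenic cells, against 39.0% and 56.4% at full depth (medians of 9363 and 8350 UMIs). *Dll1* was seen in 3.29% and 25.4%, *Dll4* in 0.751% and 23.0%, and *Mfng* in 6.12% and 42.3%. A transcript of at least 1 ligand was seen in 6.41% of progenitor-like cells (5.30% to 7.67%), 56.1% of neurogenic cells (52.0% to 60.1%), 16.4% of ganglion-cell-like cells, 17.5% of amacrine- or horizontal-like cells and 40.8% of cone-like GFP+ cells. Without *Dll3*, the share in cone-like cells was 10.3% and in neurogenic cells 40.8%. For comparison, *Lfng* was seen in 0.0992% of the thinned cone-like cells.

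In neurogenic cells, receptor and ligand transcripts were found in the same cells about as often as the product of their shares gives. Among 610 thinned neurogenic cells, *Notch1* and *Dll1* were both seen in 47, and the product of the shares gives 41.9, a ratio of 1.12 (0.824 to 1.49). *Notch1* with *Dll4* gave 46 against 37.9. *Dll1* and *Dll4* were seen together in 49 cells against 35.6 (1.38, 1.02 to 1.82), and *Dll1* with *Hes1* in 27 against 41.4 (0.652, 0.430 to 0.949). In 1732 progenitor-like cells *Dll1* and *Mfng* shared 15 cells against 3.49 by the product, and *Dll1* and *Hes6* 50 against 22.9, a ratio of 2.18 that was 1.39 in cells at their own depth. In amacrine- or horizontal-like cells, where members differed between subsets, *Notch1* and *Dll3* shared 14 cells against 4.62. A transcript missed in a cell at this depth does not show that it was not made there.

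Other genes of the pathway were taken from a list of 44 and counted in the same way. Between neurogenic and progenitor-like cells, 4 of 37 measured genes were at least 2-fold higher and 2 lower, beside 4.4% and 7.36% of all genes. *Hes6* went from 264 to 2219 CPM (8.42-fold), *Numbl*, a relative of the Notch inhibitor Numb, from 6.43 to 23.8 CPM, *Rbpj* from 52.0 to 178 CPM and the neuronal ligand gene *Dner* from 1.67 to 4.95 CPM. *Hes1* went from 597 to 174 CPM (3.44-fold lower) and *Dtx4*, a Deltex ubiquitin ligase, from 74.2 to 33.3 CPM. *Hes5* (306 and 574 CPM), *Hey1* (27.8 and 31.4 CPM), *Nrarp*, a target that feeds back on the receptor (102 and 62.7 CPM), *Mib1*, which drives ligand uptake (16.6 and 24.96 CPM), and *Numb* (8.16 and 8.38 CPM) lay within 2-fold.

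In ganglion-cell-like cells 7 of 39 pathway genes were higher than in progenitor-like cells and 5 lower, and in amacrine- or horizontal-like cells 7 and 8 of 38. Of all genes 13.8% and 18% passed in the first comparison and 15.9% and 17.7% in the second, so these counts lie near the background. *Hes1* (42.3 and 62.4 CPM), *Nrarp* (18.0 and 23.9 CPM) and *Dtx4* (12.8 and 12.3 CPM) were lower in both, and *Hes5* was lower in the first (106 CPM) and within 2-fold in the second (341 CPM). *Dner* (52.3 and 18.9 CPM) and *Numbl* (67.0 and 26.6 CPM) were higher in both. *Hey1* (69.6 CPM), *Adam10*, which cuts the receptor once a ligand has bound (66.2 CPM), and *Dlk2* were higher in ganglion-cell-like cells, and *Dtx1* (112 CPM) and the Delta-like gene *Dlk1* (18.5 CPM) in amacrine- or horizontal-like cells.

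In cone-like cells 15 of 41 pathway genes were higher than in progenitor-like cells and 8 lower. Of the 8 targets, *Hes1* (2.15 CPM), *Hes5* (4.24 CPM), *Heyl* (0.404 CPM) and *Nrarp* (7.88 CPM) were lower and *Hes7* was higher, at 1.89 against 0.371 CPM. *Hes6* (358 CPM) and *Hey1* (45.8 CPM) lay within 2-fold. Of the 10 genes for receptor cleavage, 5 were higher, among them *Ncstn* (64.4 against 15.8 CPM) and *Furin* (37.8 against 12.5 CPM), a subunit of the secretase that releases the intracellular part and a protease that matures many membrane proteins. *Numbl* (91.1 CPM), *Itch* (110 CPM), *Dtx3* (419 CPM) and *Mib2* (35.8 CPM) were higher too. Of all genes in this comparison 28% were higher and 14.6% lower, and the median gene was shifted by 0.40 on the log2 scale toward cone-like cells. *Rbpj* (74.3 CPM), *Mib1* (31.2 CPM) and *Numb* (9.56 CPM) were within 2-fold.

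The genes with the pattern most like that of a member were sought over 6 groups (5 named groups and the cone-like GFP− cells) among 4472 well measured genes, by Pearson correlation of log2 CPM. *Dll3* was most like *Btg2* (r = 0.976), *Insm1* (0.965) and *Chd7* (0.963), and *Dll4* like *Trappc13* (0.966), *Hmgn5* (0.965) and *Rbpj* (0.932). *Notch3* was followed by *Rps7*, *Pmepa1* and *Dtx4* (0.979 to 0.989), *Mfng* by *Eif4e3*, *Dlx2* and *Spsb4* (0.944 to 0.972), and *Lfng* by *Ppm1g*, *Fbxw7* and *H2afy* (0.962 to 0.984). *Notch1* was nearest to *Trp53* (0.991), *Notch2* to *Hnrnpul1* (0.985), *Dll1* to *Tnpo3* (0.991) and *Rfng* to *Ccdc28b* (0.992). With 6 points, 5 of them from 1 library, such values are high for many genes and describe the order of the groups alone. *Jag1* had too few UMIs for the comparison.

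By the GENCODE annotation of GRCm38, the members are protein-coding genes on 7 chromosomes, among them *Dll3* at chr7:28293553-28302238 on the minus strand and *Mfng* at chr15:78755882-78773475 on the minus strand. An exon of *Notch2* overlaps an exon of *Gm42820* on the same strand. Reads there could be split or lost if the reference used for counting holds both genes, which was not checked. Exons on the opposite strand overlap *Notch1*, *Notch3*, *Dll1* and *Dll4*, and the 3′ droplet kit keeps the strand.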

How the data were processed

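The authors deposited a matrix of raw UMI counts for each library, with no scaling applied, made with Cell Ranger 2.1.1 on mm10 (GRCm38). Cells with more than 250 and fewer than 3500 genes and a mitochondrial fraction under 0.25 and genes in more than 3 cells were kept, which removed 39 GFP+ and 1055 GFP− cells. The mitochondrial limit is printed as a percentage in the study's methods and was read as a fraction. Scrublet (scanpy 1.11.5) called 3 GFP+ and 55 GFP− doublets (0.0805% and 1.24%). Both shares are below the expected rate set for the caller (0.03, as a fraction), the first by far. The reason was not tested, and doublets may have been missed. The cell filters had removed all but 2 GFP+ and 0 GFP− called cells, and those 2 were left in.

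Marker sums at 3 UMIs (10 for progenitors) set the groups, in the order neurons, neurogenic cells, *Otx2* and *Crx* cells, progenitors. Cells in more than 1 neuron group were left out. A gene was called at a 2-fold CPM ratio with at least 30 UMIs in both groups together. With 1 library per gate no p-value was computed. Intervals are 95% exact Poisson (CPM), Clopper-Pearson (shares) and conditional binomial (ratios). The Poisson and ratio intervals were run on simulated independent counts only. Real UMIs can gather in single cells, so their coverage in these data was not tested. A count of 0 allows 3 counts. Log2 CPM + 5 was used for likeness.

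Some genes of the marker and pathway lists are not reported here by name. Members, lists and markers were chosen with earlier results of these data known. Genes named are the members, the pathway lists and the 3 most alike genes per member. Alternatives changed cell filters, scaling (edgeR 4.0.16 TMM), thinning, thresholds and markers. Subsets by single genes, proneural bins and cone bins were added after seeing the data. Python 3.11.15, numpy 2.4.6, pandas 2.3.3, scipy 1.17.1 and R 4.3.3 were used.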

Additional observations from a re-analysis of the deposited data

How the results depend on the processing

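Of 80 recomputed counts of members past 2-fold, over 17 alternatives, 76 stayed within 1.5 times the reported count. Not every alternative could move a count. Leaving out called doublets removed 2 GFP+ and 0 GFP− kept cells, and no call was lost. A count can also stay within the limit while single calls are lost. Of 7 members called in cone-like cells, TMM factors lost 2, and so did division by the median of all genes. The tally is therefore not read as a measure of how stable single members were. At 1.5-fold the count between the gates was 8. At 3-fold it was 4 in ganglion-cell-like and 4 in amacrine- or horizontal-like cells, as a stricter limit gives. The shares of all genes past 1.5-fold and 3-fold were not computed, so these counts are not read as particular to the members. Thinning to 3200 UMIs before the groups were set left 4 members in amacrine- or horizontal-like cells, and *Dll1* there turned to a ratio of 0.939. The cause of that turn was not tested. In cone-like cells *Mfng* turned to 0.999 in UMIs per cell. That scale is not divided by depth, and median depth was 3877 UMIs in cone-like and 9363 in progenitor-like cells. TMM factors and division by the median of all genes each took *Dll1* and *Mfng* in cone-like cells under 2-fold (1.88 and 1.75 with TMM). In ganglion-cell-like cells *Dll1* turned from 1.54 to 0.64 and *Dll4* went from 0.991 to 0.299 when thinned. Lower marker limits there gave *Dll4* 2.74. No paired analysis was possible because each gate has 1 library. Depth limits *Jag1* and the low values of *Notch3*.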
